A study of Drosophila melanogaster with 12 samples.

Results

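Many Drosophila genes still carry only a CG number, a name given to a predicted gene before its function is known. The genes described here are those with a CG number whose transcripts were abundant in fertile Wildtype females and nearly absent from sterile ovoD mutant females. They were chosen by measured values: a probe set annotated to 1 gene, a Wildtype mean of at least 7 and an ovoD mutant mean of at most 4 on the log2 scale. The rule found 41 genes among 5209 CG genes and 11982 genes in all with a probe set of their own, and each of the 41 had 1 such probe set. Because Wildtype and ovoD mutant arrays made the choice, the loss in ovoD mutant females is a description and was not tested. The question taken here was how these genes behaved in fertile females without corpora allata, set beside lists of eggshell and germ line genes.

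In the ovary, germ line cells and the somatic follicle cells around them form egg chambers that mature in order. Nurse cells of the germ line load the oocyte with maternal RNAs over a long period of oogenesis, while follicle cells of late chambers make the vitelline membrane and then the chorion, each protein in its own short window. The dominant ovoD allele stops egg chambers early, before yolk is taken up, so that such females have few of the late chambers that hold these RNAs. Juvenile hormone, made in the corpora allata, promotes yolk uptake, and females without these glands mature fewer eggs.

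Transcripts were measured in whole females of Drosophila melanogaster on 12 Affymetrix arrays, 3 for each of 4 genotypes, and each array took RNA from 25 pooled females. CAKO females lack corpora allata from soon after eclosion. They carried Aug21-Gal4, a driver active in this gland and combined with UAS-GFP, which expressed UAS-NIPP1, an inhibitor of protein phosphatase. The ablation is not complete in every fly, since the study describes glands that were small as well as glands that were gone. The ovoD mutant females carried OvoD1 with intact corpora allata, and CAKO_ovoD females carried both OvoD1 and the corpora allata knockout. The design text gives Wildtype and the OvoD1 control a wDah/w1118 background, and states none for CAKO and CAKO_ovoD. A figure legend on the arrays instead places both fertile genotypes in wDah and both sterile ones in the mixed wDah/w1118 background. If the legend holds, background and OvoD1 cannot be told apart in CAKO_ovoD against CAKO, nor in the choice of genes from Wildtype and ovoD mutant arrays. Ages are given as 15 days in the sample labels and 14 days in the growth protocol. The 3 arrays of a genotype are described as biological replicates, and p-values here rest on how far such arrays lay apart, pooled over the 4 genotypes. In whole females, fewer cells of a type and less RNA per cell cannot be told apart.

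The labels were checked against the genes they name. Expression of jhamt, an enzyme of juvenile hormone synthesis in the corpora allata, was 4.61 to 4.71 in Wildtype and 2.79 to 3.34 in CAKO, and 6.56 to 6.72 in ovoD mutant and 3.75 to 4.59 in CAKO_ovoD. The germ line gene ovo was at 12.02 or above on every fertile array and at 8.32 or below on every sterile array. The lowest value the background adjustment gives was 2.13, called the floor here, and 46.6% to 47.5% of probe sets lay within 0.2 of it on each array. Array medians were 2.86 to 2.92, and for pairs of replicate arrays the median difference over the probe sets tested was 0.04 to 0.08 log2 units. In CAKO against Wildtype, 4 of 6 muscle, 5 of 6 photoreceptor and 5 of 9 early germ line genes had intervals within 1.5-fold either way, and 1 of 6 muscle genes was higher. Among those early germ line genes bgcn was at the floor on all 12 arrays, so that its interval gives no measure of a change. Fat body genes moved both ways (3 of 8 lower, 2 of 8 higher), as did midgut genes (3 of 9 lower, 1 of 9 higher), and 1 of 4 spermatheca genes was lower. The part of these tissues in the results was not tested.

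The 41 genes spanned Wildtype means from 7.02 to 12.04, with a median of 7.92. In ovoD mutant females their means were 2.13 to 3.95, and 9 of 41 had all 3 arrays within 0.2 of the floor. The difference between ovoD mutant and Wildtype ranged from -9.79 to -3.13 with a median of -5.10. The rule itself required a difference at least as large as the gap between its thresholds. Just inside the Wildtype threshold were CG6985 at 7.02, CG31875 at 7.02 and CG14561 at 7.04, and just outside were CG14803 at 6.99, CG11403 at 6.97 and CG13742 at 6.96. Just inside the ovoD mutant threshold were CG12713 at 3.95, CG31875 at 3.90 and CG18213 at 3.88, and just outside were CG1239 at 4.06, CG3430 at 4.12 and CG3045 at 4.18. The edges of the set are thus no break in the values.

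**Figure D1:**
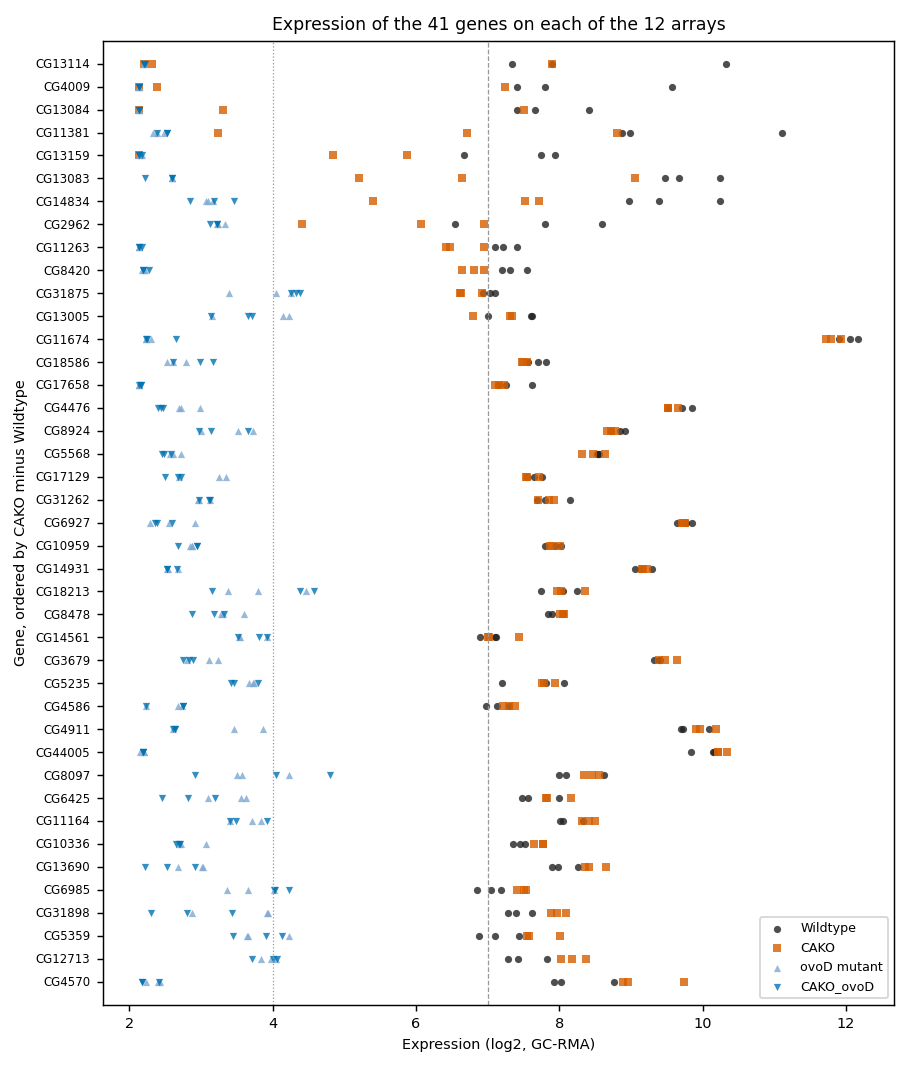
Expression on the log2 scale (x axis) of each of the 41 genes (y axis, ordered by the CAKO minus Wildtype difference) on all 12 arrays, with 1 point per array and a symbol per genotype. The dashed line marks the Wildtype threshold of 7 and the dotted line the ovoD mutant threshold of 4. The 8 uppermost genes have CAKO points spread over more than 2 log2 units, and for the other 33 the CAKO points lie close together near the Wildtype points.

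Without corpora allata, 8 of the genes had mean levels at least 3.58-fold lower and the other 33 differed by less than 2-fold either way. In CAKO against Wildtype 5 of 41 genes fell (1.97% of all 13871 probe sets tested were lower) and 2 of 41 rose (3.27% were higher). A call here needed an adjusted p under 0.05 and a change of at least 1.5-fold in a linear model over all arrays (limma, n = 3 per genotype). This model uses 1 spread per gene from all 4 genotypes, sterile arrays near the floor included. In the 8 genes the SD was at least 1.28 in CAKO, but at most 0.08 in ovoD mutant and 0.31 in CAKO_ovoD. Such small values lower the shared spread. Where CAKO replicate 2, the highest CAKO array for most of the 8 genes, is left out below, the sterile arrays weigh more. Small p-values given without that array are thus no firm support for a fall. A limma fit of the 2 fertile genotypes only gave 0 falls and 0 rises. CAKO against Wildtype uses the same Wildtype arrays that chose the genes, which by itself can lean a difference towards a fall. Another 17 of 41 genes held their level, meaning that they were not called and that the 95% interval of the change stayed within 1.5-fold either way, as it did for 80.5% of all probe sets tested. The remaining 17 were unresolved, neither called nor held within these bounds. The share of 80.5% takes in probe sets at the floor in both genotypes, such as bgcn, which hold without a measure of change. It therefore does not tell how often genes as abundant as these hold. At an unadjusted p under 0.05 limma gave 10 lower and 7 higher (12.4% and 11.7% of all probe sets tested). The number of falls rested on single arrays, running from 1 without Wildtype replicate 3 to 8 without CAKO replicate 2, and only leaving out Wildtype replicate 2 kept it within 1.5 times of 5.

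The order of the differences had a wide gap. Differences in 8 genes lay between -4.38 and -1.84, and those of the other 33 lay between -0.63 and 0.96, so that 1.21 log2 units separated the groups where neighbours in the order otherwise lay closer. Of all probe sets tested 1.38% differed by less than -1, against 19.5% of the 41 genes. The share was 18.4% among the 114 genes with other symbols that meet the same thresholds, and 1.71% among 1933 other CG genes with a Wildtype mean of at least 7. Of the 114 genes 13 fell, 0 rose and 47 held. They take in listed eggshell genes, such as the 7 chorion genes tested, whose differences were all below -1. The comparison with these 114 genes and that with the eggshell list thus overlap. These shares were not tested, since the choice of members fixes in part who can fall.

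**Figure D2:**
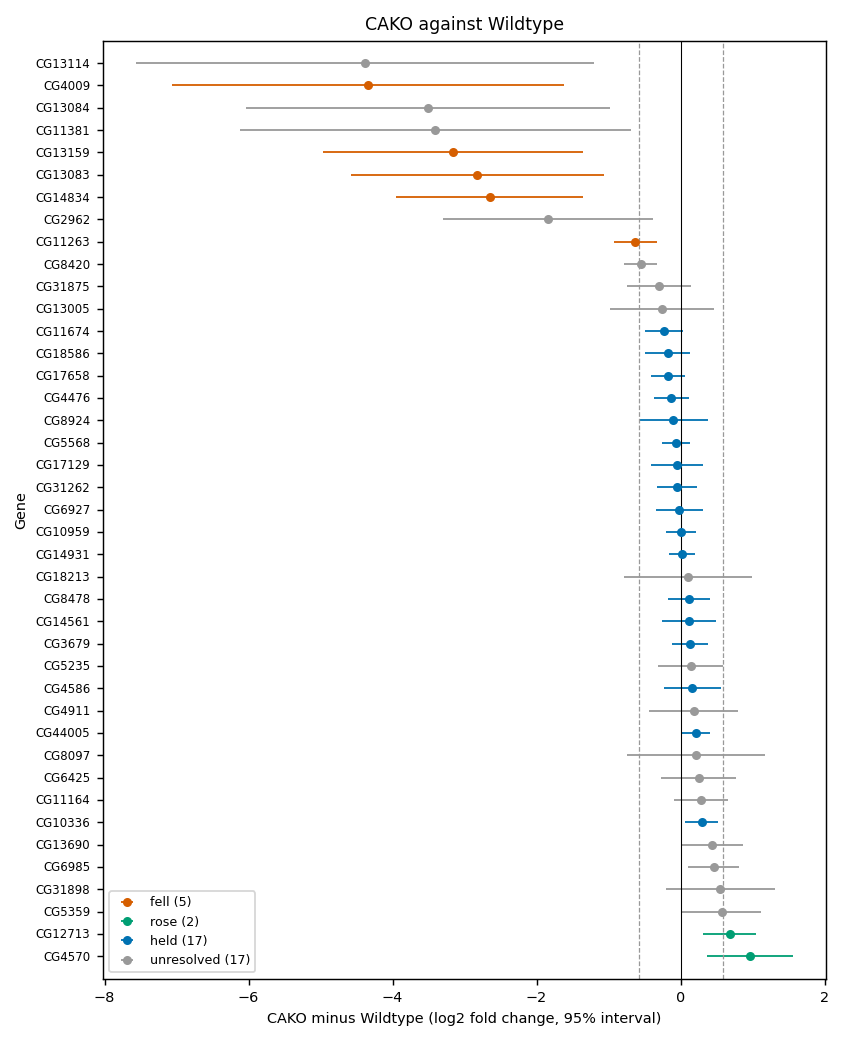
Log2 fold change of CAKO against Wildtype (x axis) with its 95% interval for each of the 41 genes (y axis), coloured by class, with dashed lines at 1.5-fold either way. The 8 genes at the top have wide intervals that lie wholly below 0, and the intervals of the others are narrower and nearer to 0.

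CG14834 gave the firmest of the large falls. It measured 9.39, 8.97 and 10.24 on the Wildtype arrays, against 5.40, 7.72 and 7.52 on those of CAKO. Every CAKO array lay below every Wildtype array, with replicate 1 lowest. The mean was 6.29-fold lower (log2 fold change -2.65, SE 0.57, adjusted p = 0.0155), and without Wildtype replicate 3 it was -2.30 and narrowly missed the threshold (adjusted p = 0.0543).

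CG13159 also fell, to the floor on 1 array. Wildtype arrays gave 7.74, 6.66 and 7.94, and CAKO arrays 5.87, 2.13 and 4.84. Here CAKO replicate 2 was lowest, and the groups did not overlap. The mean was 8.97-fold lower (-3.16, SE 0.79, adjusted p = 0.0306), and without CAKO replicate 2 the difference was -2.09 (adjusted p = 0.0143). The call was lost without Wildtype replicate 1, Wildtype replicate 3, CAKO replicate 3 or ovoD mutant replicate 2 (adjusted p = 0.0501 to 0.0954).

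CG4009 had the largest fall that passed the test. Wildtype arrays measured 7.41, 7.80 and 9.57, against 2.13, 7.24 and 2.39 without corpora allata. Replicates 1 and 3 of CAKO were at or near the floor while replicate 2 was just under the lowest Wildtype array. The mean difference was 20.3-fold (-4.34, SE 1.20, adjusted p = 0.046), and without CAKO replicate 2 it was -6.00 (adjusted p = 0.000555). Leaving out any other single array lost the call (adjusted p = 0.0647 to 0.153).

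CG13083 and CG13084 are next to each other on arm 2L in the RefSeq annotation (Release 6). CG13083 measured 9.67, 9.47 and 10.23 in Wildtype. Its CAKO arrays were at 6.64, 9.06 and 5.20, and their mean was 7.08-fold lower (-2.82, SE 0.78, adjusted p = 0.0446). CG13084 measured 7.41, 7.66 and 8.41 in Wildtype and 3.30, 7.51 and 2.14 in CAKO. On both genes CAKO replicate 2 lay near the Wildtype arrays, within their range for CG13084, and replicate 3 was lowest. The difference for CG13084 was -3.51 and did not pass (SE 1.12, adjusted p = 0.0775), while without CAKO replicate 2 it was -5.11 (adjusted p = 0.000172). The call for CG13083 was kept without CAKO replicate 2 and lost without any other single array (adjusted p = 0.0637 to 0.134). The genes on either side of the pair, CG10195 and CG10194, held, with differences of 0.07 and 0.08.

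CG13114 and CG11381 had large differences that did not pass. CG13114 gave 7.34, 7.89 and 10.32 in Wildtype and 2.20, 7.89 and 2.31 in CAKO, for a difference of -4.38 (SE 1.40, adjusted p = 0.0797). CG11381 gave 8.88, 8.99 and 11.10 in Wildtype and 3.23, 8.81 and 6.71 in CAKO, for a difference of -3.41 (SE 1.20, adjusted p = 0.108). For both genes CAKO replicate 2 was the high array and Wildtype replicate 3 the highest of all, and the groups overlapped for CG13114 only. Leaving out CAKO replicate 2 gave -6.26 for CG13114 (adjusted p = 0.00172) and -4.69 for CG11381 (adjusted p = 0.0226). Of the genes next to CG13114 on 2L, jp held (-0.06), while CG13113 was unresolved with a large difference (-1.84). CG13113 had means of 6.14 in Wildtype and 4.30 in CAKO. It is no member, with means of 6.11 in ovoD mutant and 4.02 in CAKO_ovoD.

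CG2962 ran the other way across the arrays. The Wildtype arrays gave 8.60, 7.80 and 6.55, and the CAKO arrays 6.95, 4.41 and 6.07, so that the groups overlapped. CAKO replicate 2 was lowest, as for CG13159, and Wildtype replicate 3 was the lowest of its group. The difference of -1.84 did not pass (SE 0.64, adjusted p = 0.107), although it did without Wildtype replicate 3 (-2.39, adjusted p = 0.0494) or CAKO replicate 1 (-2.41, adjusted p = 0.0494).

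These 8 genes had the widest spread between CAKO arrays among the 41. The same CAKO arrays gave the low means that set the 8 apart, so their spread is no separate result. The range over the 3 CAKO arrays was 2.31 to 5.69 for the 8 genes and 0.05 to 0.84 for the other 33. A CAKO range over 2 was found in all 8, and in 52 of the 13871 probe sets tested (0.375%). That share takes in probe sets at the floor. It therefore does not tell how often genes as abundant as these spread so far. In Wildtype the range was 0.76 to 2.98 in the 8 genes and 0.02 to 0.86 in the others, so that these overlapped. In the sterile genotypes, where the 8 had means of at most 3.26, their ranges reached 0.15 in ovoD mutant and 0.63 in CAKO_ovoD, against 1.27 and 1.88 in the others. CAKO replicate 2 was the highest CAKO array in 6 of the 8, and Wildtype replicate 3 the highest Wildtype array in 7 of the 8. Among the other 33 genes CAKO replicate 3 was most often highest (25 of 33) and Wildtype replicate 1 most often (24 of 33), over much smaller ranges. No single array was thus high or low over all 41 genes.

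Listed eggshell genes also differed widely between CAKO arrays. Of 20 tested, 17 differed by less than -1 and 8 fell, and 10 had a CAKO range over 2, with CAKO replicate 2 highest in 8 of these 10. Among the 8 falls was pip, which was low throughout, with means of 2.91 in Wildtype and 2.27 in CAKO. This list is not uniform either, since tsl held (0.31) and was higher in CAKO_ovoD than in CAKO (1.12). The profile of CG13114, CG4009 and CG13084, with a high CAKO replicate 2, was also seen in yellow-g, a gene of the yellow family used in the eggshell, with 8.30, 8.57 and 10.81 in Wildtype and 2.20, 8.64 and 3.08 in CAKO. Among chorion genes Cp36 had CAKO values of 9.85, 14.10 and 10.35, and Cp38 of 9.37, 13.76 and 8.75. Other chorion genes differed from these: Cp15 measured 7.33, 10.98 and 13.31 in CAKO, and Cp16 measured 10.36, 10.73 and 8.59. Femcoat, an eggshell gene, had 6.18, 7.73 and 2.83, with replicate 3 lowest as for CG13083. A high CAKO replicate 2 was not particular to the eggshell. That array was highest in 14 of the 20 eggshell genes, but also in 7 of 8 fat body and 5 of 9 midgut genes. None of these fat body and midgut genes had a CAKO range over 2. The array was highest in 3 of 16 late germ line and 0 of 6 muscle genes.

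The vitelline membrane genes had tighter CAKO arrays. Among the 6 tested, 5 passed, and 0 of 6 had a CAKO range over 2. Vm32E measured 11.65, 11.82 and 12.18 in Wildtype and 9.21, 10.62 and 10.07 in CAKO (-1.92, SE 0.30, adjusted p = 0.00326). None of the 6 had the CAKO replicate 2 minimum seen in CG13159 and CG2962, and in all 6 that array was highest. These likenesses are described from 3 arrays a genotype and were not tested.

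**Figure D3:**
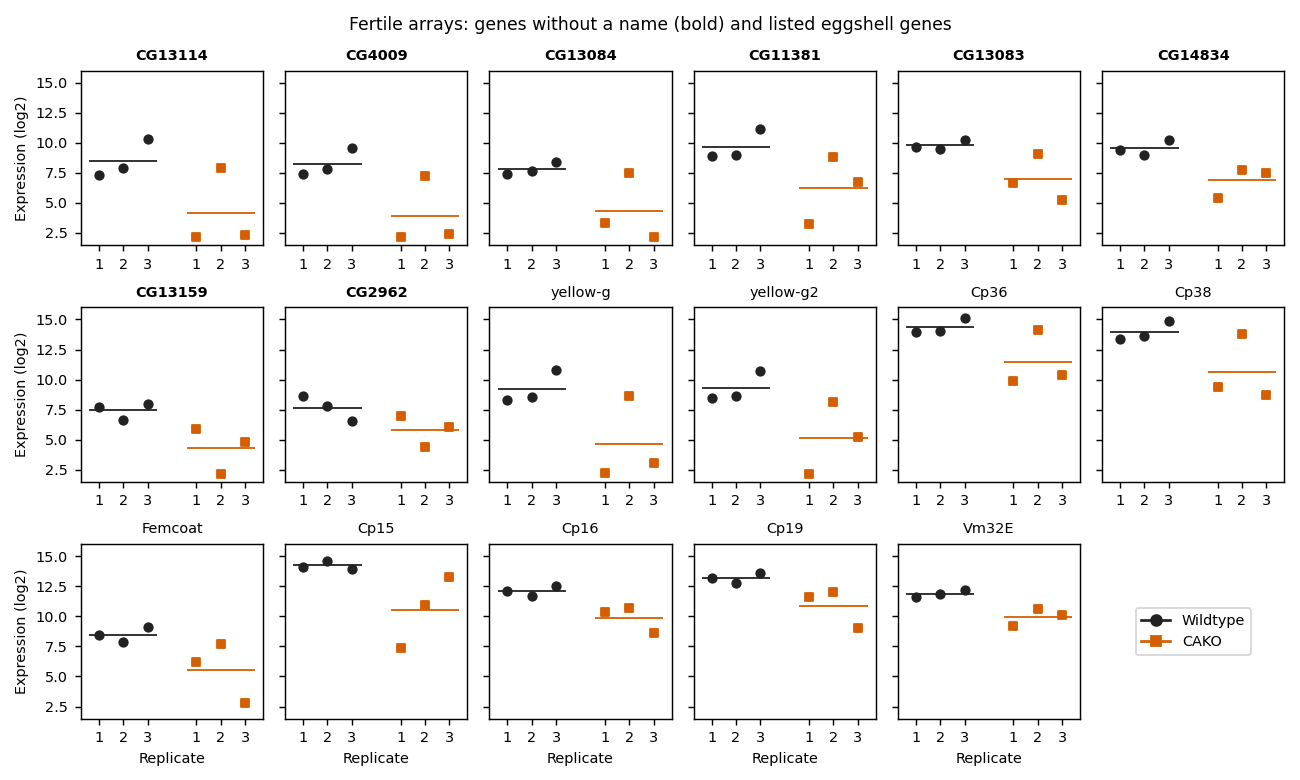
Expression on the log2 scale (y axis) on the 3 Wildtype and 3 CAKO arrays (x axis, replicate number) for the 8 genes with differences below -1 (bold titles) and 9 listed eggshell genes, with 1 point per array and a line at each group mean. CG13114, CG4009, CG13084, yellow-g, Cp36 and Cp38 have a high CAKO replicate 2, while CG13159 and CG2962 are lowest there.

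In the other 33 genes the called changes were under 2-fold. CG11263 fell 1.55-fold, with 7.10, 7.22 and 7.41 in Wildtype and 6.41, 6.95 and 6.48 in CAKO (-0.63, SE 0.13, adjusted p = 0.0141), a call lost without Wildtype replicate 3, CAKO replicate 1 or CAKO replicate 3 (-0.56 to -0.53). CG8420 had a firmer difference of smaller size, with 7.55, 7.19 and 7.32 in Wildtype and 6.80, 6.64 and 6.95 in CAKO. It passed on p but not on size (1.47-fold, -0.56, SE 0.10, adjusted p = 0.00608), and passed on both without Wildtype replicate 2 (-0.64) or CAKO replicate 3 (-0.63).

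The rises were CG12713 and CG4570. CG12713 had Wildtype values of 7.83, 7.42 and 7.29 and CAKO values of 8.02, 8.18 and 8.38, a 1.60-fold rise (0.68, SE 0.16, adjusted p = 0.0239). CG4570 had Wildtype values of 8.02, 8.76 and 7.93 and CAKO values of 8.89, 8.96 and 9.73, a 1.94-fold rise (0.96, SE 0.26, adjusted p = 0.0451). In both genes every CAKO array lay above every Wildtype array. The CG12713 call was lost without Wildtype replicate 2 or 3 or CAKO replicate 2 or 3 (adjusted p = 0.0654 to 0.086), and that of CG4570 without any single array except Wildtype replicate 2 (adjusted p = 0.0537 to 0.142). Over the 41 genes the CAKO arrays lay wholly below the Wildtype arrays in 9 (14.6% of all probe sets tested) and wholly above in 8 (13.7%).

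The genes that held had intervals within 1.5-fold by definition, and some of the narrowest are given first. CG14931 had the narrowest, with 9.30, 9.06 and 9.13 in Wildtype and 9.16, 9.17 and 9.23 in CAKO, for a difference of 0.02 with an interval from -0.16 to 0.20. CG5568 differed by -0.06 (interval -0.26 to 0.13) and CG10959 by 0.00 (-0.20 to 0.21). CG44005, listed in RefSeq also as CG34252, differed by 0.21 (0.01 to 0.41), and CG10336 by 0.29 (0.06 to 0.52). CG11674, the gene with the largest measured difference between CAKO_ovoD and CAKO, gave 12.17, 12.05 and 11.90 in Wildtype and 11.80, 11.72 and 11.92 in CAKO, for a difference of -0.23 (-0.50 to 0.04). Its interval stayed within 1.5-fold.

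Held genes with a second name in RefSeq were CG4476 (DmNAT3), CG31262 (dSLC5A14), CG6927 (Lcch-4D) and CG8924 (CC9). CG4476 differed by -0.13 (-0.37 to 0.11), CG31262 by -0.05 (-0.32 to 0.23), CG6927 by -0.02 (-0.34 to 0.31) and CG8924 by -0.10 (-0.58 to 0.38). CG4911 (FBXO4) differed by 0.18 but was unresolved, with an interval from -0.44 to 0.80. These 5 were named for their synonyms after their values were seen. The other held genes were CG17658, CG3679, CG8478, CG18586, CG17129, CG14561 and CG4586, with differences from -0.18 to 0.16. Unresolved genes outside the group of 8 ran from -0.56 (CG8420) to 0.57 (CG5359), and CG31898 (0.55), CG6985 (0.46) and CG13690 (0.43) were among the highest.

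Listed late germ line genes had small differences in CAKO. None of 16 listed genes was called and 11 of 16 held. Their median difference was -0.06, against -0.02 over all 41 CG genes and 0 over all probe sets tested. The median was 0.12 over the 33 CG genes, which were set apart by this same difference, so that value is no separate comparison. The anterior determinant bcd gave 10.50, 10.40 and 10.30 in Wildtype and 10.52, 10.56 and 10.68 in CAKO (difference 0.19, interval 0.01 to 0.36). The posterior determinant osk differed by -0.23 (-1.04 to 0.57), grk, a ligand sent from the oocyte to follicle cells, by 0.06 (-0.16 to 0.28), and orb, a regulator of maternal RNA, by -0.42 (-1.13 to 0.30). The list is not uniform under ovoD, since 14 of 16 were lower in CAKO_ovoD than in CAKO and grk (0.09) and stau (-0.30) were not.

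The arrays of CAKO and CAKO_ovoD females played no part in the choice, and they test whether the genes were lower with ovoD when the corpora allata are missing. Nearly all were, since 38 of 41 genes were lower in CAKO_ovoD than in CAKO (22.1% of all probe sets tested were lower) and 0 were higher (22% were). Of the 114 genes with other symbols that meet the same thresholds, 108 were lower, so this was not particular to CG genes. By the legend CAKO and CAKO_ovoD also differ in background, whose part was not tested. Every CAKO_ovoD array lay below every CAKO array in 39 of 41 genes (31.5% of all probe sets tested). The median difference was -4.72 over the 41 genes and 0.00 over all probe sets tested. CAKO_ovoD means ran from 2.13 to 4.32.

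CG11674 had the largest measured difference, with 11.80, 11.72 and 11.92 in CAKO and 2.25, 2.65 and 2.23 in CAKO_ovoD. The measured means differed 693-fold (-9.44, SE 0.12, adjusted p = 5.89e-11), with 2 of the 3 CAKO_ovoD arrays within 0.2 of the floor. CG44005 was at 10.21, 10.21 and 10.34 in CAKO and 2.20, 2.20 and 2.20 in CAKO_ovoD. With all CAKO_ovoD arrays within 0.2 of the floor it was at least 266-fold lower (-8.06, SE 0.09, adjusted p = 2.85e-11). CG4911 was 168-fold lower, CG6927 156-fold and CG4476 139-fold. Since CAKO_ovoD values at the floor bound the difference from below only, the order of these genes is that of the measured means. All 5 belonged to the 33 genes with small differences in CAKO. The same CAKO arrays enter both differences, and genes still high there can lie furthest above the floor. This placing is thus no separate result.

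Smallest were the effects on genes already low in CAKO. CG4009 (-1.79, adjusted p = 0.246), CG13114 (-1.93, adjusted p = 0.277) and CG13084 (-2.18, adjusted p = 0.128) were the 3 genes not called. Without CAKO replicate 2 their differences were -0.13, -0.05 and -0.59, and without CAKO replicate 3 CG13084 passed (-3.27, adjusted p = 0.0213). Each had CAKO arrays at or near the floor, and their CAKO_ovoD values were 2.13 to 2.21. The measured means of CG13159 differed 4.39-fold (-2.13, SE 0.79, adjusted p = 0.0425). All 3 CAKO_ovoD arrays were near the floor and CAKO replicate 2 was at it as well, so this value is no lower bound. Among the arrays left out in turn, CG13159 kept its call only without CAKO replicate 2 (-3.21) or Wildtype replicate 2. CG31875, the fifth smallest, was 5.28-fold lower from a CAKO level of 6.63, 6.61 and 6.92 to a CAKO_ovoD level of 4.26, 4.33 and 4.39 (-2.40, SE 0.20, adjusted p = 3.59e-06).

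**Figure D4:**
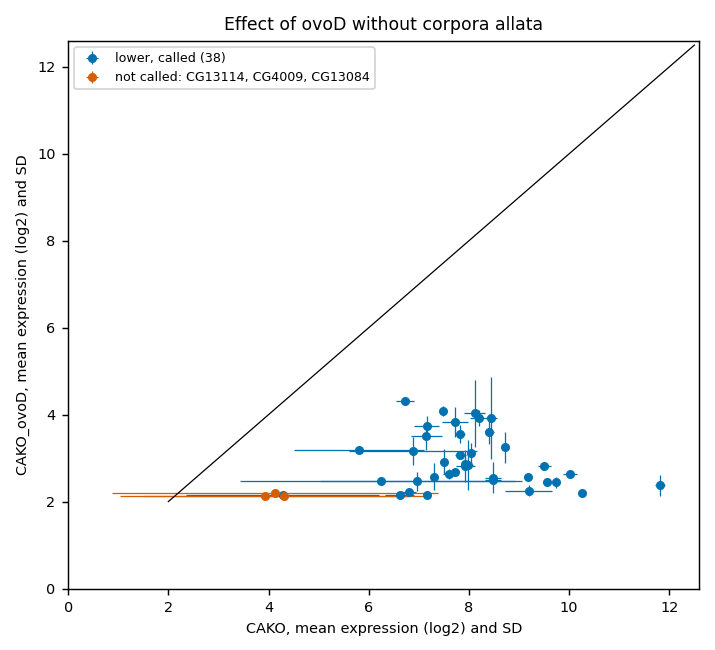
Mean expression in CAKO_ovoD (y axis, log2) against mean expression in CAKO (x axis, log2) for the 41 genes, with bars of 1 SD over 3 arrays and the line of equality. All points lie below the line, and the 3 genes not called, drawn in orange, have CAKO means of 3.92 to 4.32 with wide bars.

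In sterile females no gene of the set was called for the knockout. In CAKO_ovoD against ovoD mutant 0 of 41 genes passed in limma (1.91% of all probe sets tested were lower and 1.92% higher), and the smallest adjusted p was 0.0674. At an unadjusted p under 0.05 limma gave 4 lower and 1 higher (11.7% and 12.9% of all probe sets tested), and the methods' t-test gave 1 at that level, without a fold threshold. Leaving out ovoD mutant replicate 1 gave 2 calls and leaving out ovoD mutant replicate 3 gave 1. Differences ran from -0.73 to 0.42. Expression lay at most 3.95 in ovoD mutant and 4.32 in CAKO_ovoD on average, so a further fall was not measurable for the genes at the floor, and the ovoD mutant arrays also chose the set.

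The genes were spread over the chromosome arms. The 41 genes lay on X (11), 2L (8), 2R (2), 3L (11) and 3R (9), so that 26.8% were on X and 4.88% on 2R, against 16.9% and 19.2% of all CG genes. The 8 genes with large differences lay on 2L (3), X (2), 2R (1), 3L (1) and 3R (1). There were 3 pairs of neighbouring members, each described here by its CAKO values. CG13083 and CG13084 both had large differences in CAKO. CG18586 and CG5568 on 3L both held, with differences of -0.18 and -0.06. CG4009 on 3R fell, while its neighbour CG18213 gave 8.25, 8.05 and 7.74 in Wildtype and 8.02, 7.97 and 8.35 in CAKO, for a difference of 0.10 with an interval from -0.79 to 0.99. No member lay next to a listed eggshell gene.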

How the data were processed

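The authors normalized the arrays by quantiles and summarized them with GC-RMA, whose version is not given in the sources used here. They deposited the resulting log2 values, which were used as they stand. GC-RMA leaves weak signals at a floor, so a change into the floor is understated. Of 18952 probe sets, 13647 have 1 annotated gene, 402 have several and 4903 have none. Where a probe set's mean fell in the lowest quartile (25%) of each of the 4 genotypes it was removed, which took out 5081 and kept 13871 for testing, among them all 41 genes described.

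All 12 arrays entered a linear model with a mean per genotype in limma 3.58.1 under R 4.3.3 (lmFit, then eBayes with trend, 8 residual degrees of freedom), which was checked on simulated data. Two-sided p-values were adjusted across every probe set tested by the Benjamini-Hochberg method. An exact permutation test of 3 against 3 arrays cannot go below 0.1, and the number of arrays limits the precision.

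The genes and lists were chosen with earlier results of these data known. Genes were named as the largest calls each way, the narrowest held intervals, the widest CAKO ranges, the largest and smallest ovoD effects, those nearest the thresholds, neighbouring members and the first of each list. The other members and eggshell genes named were picked after their values were seen. RefSeq (Release 6) served for names and neighbours, with all 41 genes matched. Alternatives were other tests, thresholds, filters and centrings, array weights, a replicate block, and each array left out in turn.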

Additional observations from a re-analysis of the deposited data

Results flagged for a closer look

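CG31875 was picked out because its array values separated in opposite directions in fertile and sterile females, although neither difference passed the test in limma and both intervals include 0. CAKO minus Wildtype was -0.30 (interval -0.75 to 0.15, adjusted p = 0.457), with every CAKO array below every Wildtype array. CAKO_ovoD minus ovoD mutant was 0.42 (interval -0.02 to 0.87, adjusted p = 0.23), with every CAKO_ovoD array above every ovoD mutant array. The sterile separation is nearly a tie, since the lowest CAKO_ovoD array and the highest ovoD mutant array were both at 4.26, and the ovoD mutant arrays spread over 0.87. The knockout differences lay 0.73 apart on the log2 scale, which was not tested.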

How the results depend on the processing

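Counts in CAKO against Wildtype moved with the processing more than their directions did. The 5 falls and 2 rises became 2 and 1 by the methods' t-test unadjusted, 0 and 0 by that test adjusted and 0 and 0 in a fit of the 2 genotypes only. They became 3 and 1 with no filter, 1 and 1 with array weights, 4 and 0 with a 2-fold threshold, 8 and 2 with median centring and 10 and 1 with centring on 19 muscle and photoreceptor probe sets, which moved the median of all probe sets by -0.09. That centring moved it by -0.87 in CAKO_ovoD against CAKO and by -0.27 in the sterile pair. Leaving out 1 array, sterile arrays included, gave 1 (without Wildtype replicate 3) to 8 falls (without CAKO replicate 2) and 0 to 1 rises. Genes that held numbered 14 to 20 under the other settings and 13 to 18 with 1 array left out. In CAKO_ovoD against CAKO 36 to 41 genes were lower under every setting run, 36 to 38 with 1 array left out. In the sterile pair 6 genes were called with muscle and photoreceptor centring, 1 with a filter in any 1 genotype and 0 to 2 with 1 array left out. CG4009 had no value under that last filter, and lost its call under 18 of 23 settings. Thresholds of 8 and 3 gave 12 genes, of 6 and 5 gave 130, and leaving out 1 array gave 39 to 42. The cause of these changes was not tested, and with 3 arrays a genotype several calls lie close to the threshold.

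Replicate numbers did not pair the arrays: deviations of same-numbered CAKO and Wildtype arrays correlated at 0.149, -0.122 and -0.159. With a replicate block 3 genes fell and 0 rose in CAKO against Wildtype, and 38 were lower in CAKO_ovoD against CAKO.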
